A study of Homo sapiens with 6 samples.

Results

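Classical cadherins and the catenins that bind them were examined in parental LNCaP and in enzalutamide-resistant LNCaP-enzaR cells. The set was listed by gene name as 10 genes (CDH1, CDH2, CDH3, CDH11, CTNNA1, CTNNA2, CTNNB1, CTNND1, CTNND2 and JUP), of which 9 had a row among the 35554 genes of the table. CDH11 was not analysed here. The set was selected on measured values: CTNND2 was included because its counts differed widely between these same libraries, and the others were added by family with results known. Values of these 9 genes are therefore given as a description, without a test.

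LNCaP is an established human cell line grown from a metastatic prostate carcinoma. LNCaP-enzaR is its resistant derivative, a single line selected in culture under enzalutamide, an androgen receptor antagonist, the dose of which was later reduced. Whether the drug was present at harvest is not stated. RNA was sequenced from 3 flasks per line, labelled biological replicates, so the spread reported here is that between flasks of the same line.

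Library totals ranged from 77759122 to 98616465 counts, and within a line the correlation of log expression was 0.99 to 0.992. Mitochondrial transcripts took 6.72% to 7.06% of parental and 14.8% to 15.5% of LNCaP-enzaR counts. All 9 prostate luminal markers examined were detected in both lines, with a summed level of 5150 to 5270 CPM (counts scaled to a common library size) in parental and 4400 to 4560 in LNCaP-enzaR libraries. Of these, 2 were past the limits in the higher and 5 in the lower direction, beside 23.3% and 19.5% of all genes tested. Fibroblast markers (6 measured) summed to 14.7 to 17.9 CPM in parental and 8.24 to 9.03 in LNCaP-enzaR cells, with PDGFRA at 0 in parental libraries. Of the 4 tested, LUM and PDGFRB were past the limits as higher and COL1A1, which made up most of the sum, as lower. Neuroendocrine markers (7 measured) summed to 2.32 to 2.64 and 3.67 to 4.53 CPM, with INSM1 at 0 in parental libraries. Haematopoietic markers (5 measured) stayed at 0.184 CPM or less, with CD3E at 0 in parental libraries and LYZ at 0 in LNCaP-enzaR libraries. The part of these differences in the results below was not tested.

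Cadherins are transmembrane proteins that hold neighbouring epithelial cells together at adherens junctions through calcium-dependent binding of their extracellular domains. Their cytoplasmic tails bind β-catenin or its close relative plakoglobin, which in turn bind α-catenin and through it the actin cytoskeleton. Catenins of the p120 class bind a separate, membrane-near part of the tail and govern how long a cadherin stays at the surface. β-Catenin also acts in the nucleus as the coactivator of Wnt signalling, and its free pool is kept low by a cytoplasmic destruction complex. The p120-class member δ-catenin, encoded by CTNND2, is best known from neurons, and the α-catenin encoded by CTNNA2 is likewise the neuronal form.

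The main contrast among the 9 genes lay between widely expressed members, which stayed within 1.5-fold, and the neuronal-type pair CTNND2 and CTNNA2, which differed in opposite directions. CTNND2 went from 3 counts summed over the parental libraries to 3052 in LNCaP-enzaR. CTNNA2 went from 180 counts to 13. Of the 7 members with enough counts to be tested, 1 was past the limits as higher and 1 as lower. Both, CTNND2 and CTNNA2, passed the filter on low counts through 1 line only. The limits were a 1.5-fold difference in either direction and an adjusted p no higher than 0.05. For all 19711 genes tested the share past them was 42.7%, with 23.3% higher and 19.5% lower. The same contrast served to choose the set, so nothing is read from the members' count. The median log2 fold change was -0.03 over the 7 members and 0.01 over all genes tested.

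**Figure D1:**
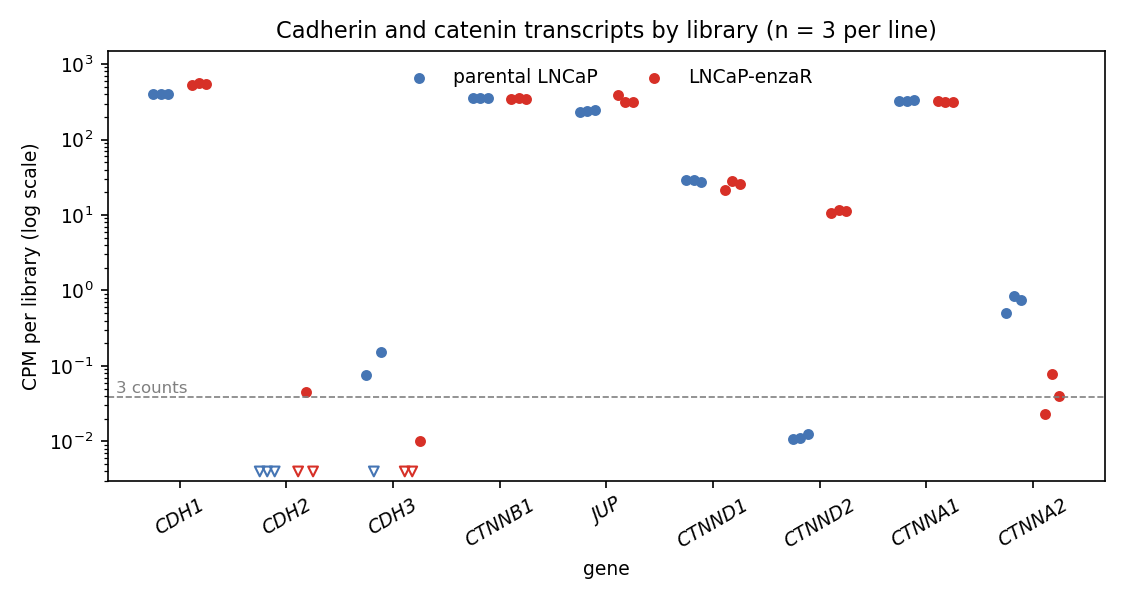
Level of each of the 9 genes in every library, in CPM on a log scale. Each point is 1 library (3 per line), open triangles at the bottom mark 0 counts, and the dashed line marks 3 counts in the shallowest library. CDH1, CTNNB1, JUP and CTNNA1 lay above 200 CPM in every library, whereas CTNND2 stayed under the dashed line in all parental libraries and near 11.1 CPM in LNCaP-enzaR.

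The start regions of the 2 genes with the widest differences are shown beside that of CTNNB1, whose level barely differed. Each window runs from 250 bases before to 50 bases after the transcript start, was taken from RefSeq on GRCh38.p14, and is written 5′ to 3′ on the gene's strand with CG dinucleotides in capitals.
CTNND2, chr5:11904397-11904696, minus strand: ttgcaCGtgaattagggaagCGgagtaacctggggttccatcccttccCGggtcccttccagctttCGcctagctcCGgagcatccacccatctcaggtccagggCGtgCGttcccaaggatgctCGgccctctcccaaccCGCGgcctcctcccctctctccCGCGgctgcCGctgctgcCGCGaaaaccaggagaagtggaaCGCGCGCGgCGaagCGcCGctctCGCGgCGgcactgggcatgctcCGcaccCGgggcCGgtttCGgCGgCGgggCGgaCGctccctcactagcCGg
CTNNA2, chr2:79512801-79513100, plus strand: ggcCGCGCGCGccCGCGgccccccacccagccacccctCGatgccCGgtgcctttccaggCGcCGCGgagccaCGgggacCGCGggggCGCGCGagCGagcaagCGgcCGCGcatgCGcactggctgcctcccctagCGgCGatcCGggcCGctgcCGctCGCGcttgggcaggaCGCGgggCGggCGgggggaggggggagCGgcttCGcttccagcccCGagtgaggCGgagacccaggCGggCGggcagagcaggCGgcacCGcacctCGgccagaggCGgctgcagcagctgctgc
CTNNB1, chr3:41199255-41199554, plus strand: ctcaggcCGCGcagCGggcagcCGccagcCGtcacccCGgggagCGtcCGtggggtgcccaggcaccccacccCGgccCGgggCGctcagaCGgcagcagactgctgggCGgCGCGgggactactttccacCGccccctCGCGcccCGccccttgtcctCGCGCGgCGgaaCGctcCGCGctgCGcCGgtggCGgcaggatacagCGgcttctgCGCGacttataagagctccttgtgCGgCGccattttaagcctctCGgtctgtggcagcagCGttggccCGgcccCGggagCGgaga
All 3 windows were rich in CG, with 34 CG dinucleotides for CTNND2, 43 for CTNNA2 and 39 for CTNNB1, beside a median of 14 over 35116 windows of the same length. A smaller number than in CTNND2 was found in 84.4% of windows, than in CTNNA2 in 95%, and than in CTNNB1 in 91.3%. The CTNND2 window held the palindromic letters CACGTG near its upstream end, as did 7.26% of all windows. None of the 3 held CAGGTG on either strand, the letters bound by SNAIL-type repressors, which occurred in 20.6% of windows. TATAAA, searched on both strands, was likewise found in none of the 3 and in 11.5% of windows. RefSeq lists 2 start windows for CTNND2 and 4 for CTNNA2, and counts per gene do not show which start was used. Windows were also listed for CTNNA1, JUP and CDH2, making 6 of the 9 genes.

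Among the cadherins, E-cadherin was the form expressed. CDH1 (ENSG00000039068.20, GRCh38 chr16:68737292-68835537, plus strand, 16 exons in the canonical transcript) encodes E-cadherin, the main epithelial cadherin. Its level was 400, 406 and 407 CPM in the parental libraries and 525, 558 and 537 CPM in LNCaP-enzaR. Every LNCaP-enzaR library lay above every parental one. The mean went from 404 ± 3.90 to 540 ± 16.6 CPM (SD, n = 3 per line). This is 1.34-fold, or 0.42 on the log2 scale (SE 0.050), which is short of the 1.5-fold limit. In GENCODE v44, 5.71% of its exonic bases overlap another gene.

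N-cadherin and P-cadherin transcripts were close to the counting floor. CDH2 (ENSG00000170558.10), which encodes the mesenchymal and neuronal N-cadherin, had 0 counts in each parental library and 0, 4 and 0 in LNCaP-enzaR. A count of 0 allows up to 3 counts, which is 0.0302 to 0.0382 CPM in these libraries and covers counting error only. CDH3 (ENSG00000062038.15), which encodes the P-cadherin of basal epithelial cells, had 7, 0 and 12 counts in parental and 0, 0 and 1 in LNCaP-enzaR libraries. The groups overlapped for both genes, neither entered the test, and no fold change is given. Of the summed cadherin level per kilobase over these 3 genes, CDH1 made up nearly all in every library.

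In the β-catenin class, the β-catenin gene itself barely differed while the plakoglobin gene was higher. CTNNB1 (ENSG00000168036.18, chr3:41194741-41260096, plus strand, 15 exons) was at 353, 353 and 359 CPM in parental and 347, 353 and 342 CPM in LNCaP-enzaR libraries. These ranges overlapped, with means of 355 ± 3.62 and 347 ± 5.64 CPM and a log2 fold change of -0.03 (SE 0.049). JUP (ENSG00000173801.17, chr17:41754604-41786931, minus strand, 14 exons) encodes plakoglobin, which serves both adherens junctions and desmosomes. It was at 230, 240 and 246 CPM in parental and 388, 318 and 319 CPM in LNCaP-enzaR libraries. All LNCaP-enzaR values exceeded the parental ones, and replicate 1 stood above the other 2. The means were 238 ± 8.14 and 342 ± 40.5 CPM, a log2 fold change of 0.52 (SE 0.073), or 1.43-fold, and without LNCaP-enzaR replicate 1 the log2 fold change was 0.42.

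Levels of the 2 genes can be set side by side only per length. Per kilobase of canonical transcript, CTNNB1 was at 97.0 ± 0.989 CPM in parental and 94.9 ± 1.54 in LNCaP-enzaR cells, and JUP at 68.0 ± 2.32 and 97.5 ± 11.6. Plakoglobin transcripts thus made up 41.2% ± 0.674 of this class in the parental line and 50.6% ± 2.95 in the resistant line (SD, n = 3). The shares did not overlap, at 40.4%, 41.6% and 41.6% against 53.9%, 48.4% and 49.3%. With the length of all annotated exons instead, the shares were 61.5% and 69.9%, so which of the 2 genes was more abundant depended on the length used, whereas the higher JUP share in LNCaP-enzaR did not.

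In the p120 class, CTNND1 was present in both lines and CTNND2 in LNCaP-enzaR alone above the floor of 3 counts per library. CTNND1 (ENSG00000198561.16, chr11:57753243-57819546, plus strand, 21 exons) encodes p120-catenin, the form found in most epithelia. It was at 28.8, 29.3 and 27.0 CPM in parental and 21.5, 28.5 and 26.0 CPM in LNCaP-enzaR libraries. The groups overlapped, LNCaP-enzaR replicate 1 being the lowest, with means of 28.4 ± 1.21 and 25.3 ± 3.55 CPM and a log2 fold change of -0.16 (SE 0.091). This value was -0.05 without LNCaP-enzaR replicate 1 and -0.25 without LNCaP-enzaR replicate 2. Of its exonic bases 39.1% are shared, and 78.6% of those in the canonical transcript, chiefly with the read-through gene TMX2-CTNND1, which itself held 9, 10, 4, 3, 0 and 4 counts in parental 1 to 3 and LNCaP-enzaR 1 to 3. Reads in shared exons may have been left out of gene counts, so the level of CTNND1 relative to other genes is uncertain.

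CTNND2 (ENSG00000169862.19, chr5:10971836-11904446, minus strand) spans 932.6 kb, has 22 exons in its canonical transcript and shares no exonic base with another gene of the table. Each parental library held 1 count, and the LNCaP-enzaR libraries held 931, 1017 and 1104. In CPM this was 0.0108, 0.0110 and 0.0127 against 10.8, 11.5 and 11.1. The LNCaP-enzaR flasks were close to each other, at 11.1 ± 0.363 CPM (SD, n = 3). The depth-adjusted ratio of summed counts was 974, with a 95% exact interval of 333 to 4720 that covers counting error only. The upper and lower ends lie far apart because the parental sum is 3 counts. Its LNCaP-enzaR level stood at percentile 54.2 of the genes tested, and the gene passed the filter on low counts through LNCaP-enzaR libraries only. From bulk RNA, more cells carrying the transcript and more transcript per cell cannot be told apart.

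Per kilobase of canonical transcript, CTNND2 reached 1.83, 1.96 and 1.89 CPM in LNCaP-enzaR, beside 3.80 ± 0.533 for CTNND1 in the same libraries. CTNND2 transcripts made up 36.2%, 31.4% and 32.7% of the CTNND1 and CTNND2 sum there, a mean of 33.4% ± 2.51 (SD, n = 3). In parental libraries the share was 0.0425%, 0.0425% and 0.0534%. On this length the sum of CTNND1 and CTNND2 was higher in each LNCaP-enzaR library than in any parental one. If reads in shared CTNND1 exons were left uncounted, the CTNND1 part of the sum is too low and this order may not hold. ARVCF and PKP4, of the same p120 family, were left out of this sum, so it is not the total of the family. With all annotated exons as the length the LNCaP-enzaR share was 47.9%. With exonic bases shared with no other gene, a choice made after seeing the data, it was 35.9%. Since 78.6% of canonical CTNND1 bases are shared and reads there may be uncounted, these shares may be too high. The lengths used do not settle this.

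**Figure D2:**
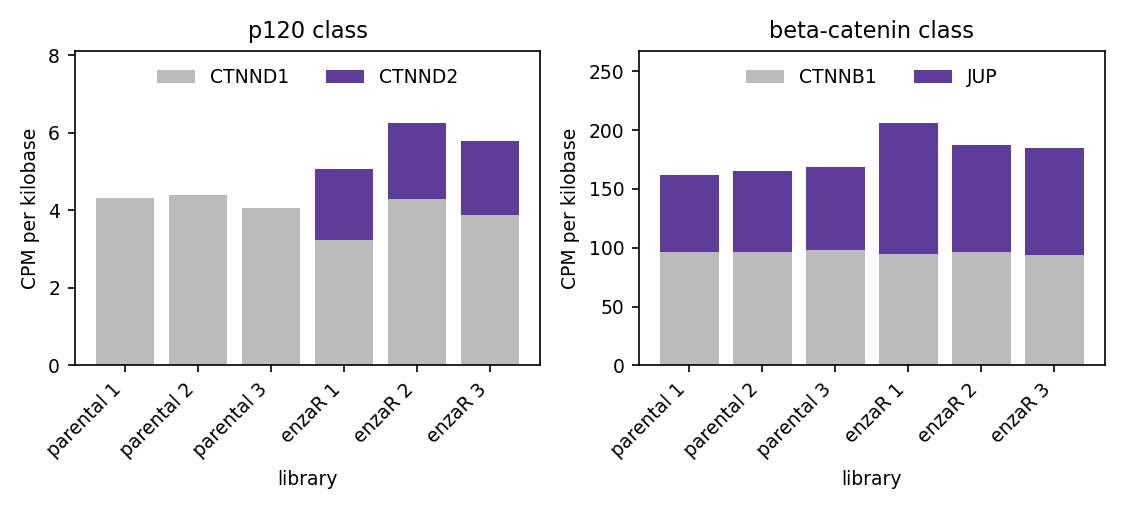
Stacked bars of CPM per kilobase of canonical transcript in each of the 6 libraries, on an axis from 0. The p120 class (CTNND1 and CTNND2 only) is on the left and the β-catenin class on the right. CTNND2 is visible only in the 3 LNCaP-enzaR bars, at 1.83 to 1.96, and JUP takes a larger part of the right-hand bars in LNCaP-enzaR (90.7 to 111) than in parental cells (65.5 to 70.1).

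Of the α-catenins, CTNNA1 was the abundant gene and barely differed, and CTNNA2 was lower in LNCaP-enzaR. CTNNA1 (ENSG00000044115.21, chr5:138610967-138935034, plus strand, 18 exons) encodes the epithelial α-catenin. It was at 320, 326 and 331 CPM in parental and 325, 313 and 313 CPM in LNCaP-enzaR libraries. The ranges overlapped, at means of 325 ± 5.57 and 317 ± 7.10 CPM and a log2 fold change of -0.04 (SE 0.050). The sign for CTNNA1 and CTNNB1 turned with upper-quartile scaling, which moved the median of all genes by 0.10 and gave log2 fold changes of 0.064 and 0.068.

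CTNNA2 (ENSG00000066032.19, chr2:79185231-80648861, plus strand, 19 exons) encodes the neuronal α-catenin and extends over 1463.6 kb. It had 46, 76 and 58 counts in parental libraries and 2, 7 and 4 in LNCaP-enzaR, and passed the filter on low counts through parental libraries only. All parental libraries lay above all LNCaP-enzaR ones, and the means were 0.690 ± 0.174 and 0.0476 ± 0.0287 CPM. The log2 fold change was -3.82 (SE 0.483), and the depth-adjusted ratio of summed counts, parental over LNCaP-enzaR, was 14.5 with a 95% exact counting interval of 8.25 to 27.7. Even in parental cells CTNNA2 made up only 0.202% ± 0.0489 of the α-catenin level per kilobase.

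**Figure D3:**
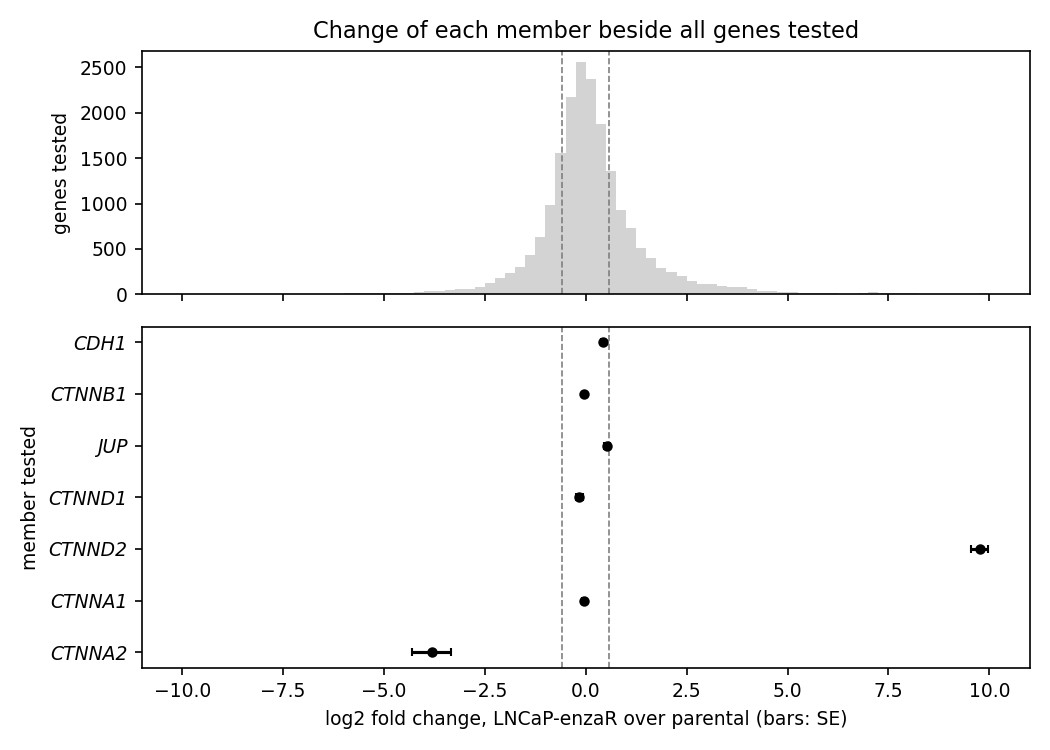
Log2 fold change of LNCaP-enzaR over parental cells for all 19711 genes tested (upper panel, histogram) and for the 7 members tested (lower panel, points with SE bars), with dashed lines at 1.5-fold. CDH1, CTNNB1, JUP, CTNND1 and CTNNA1 sit between the lines, CTNNA2 lies at -3.82, and the CTNND2 point is a fitted value that rests on 3 parental counts.

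No overlap between the lines was seen for 4 of the 7 members tested (CDH1, JUP, CTNND2 and CTNNA2), and 70.6% of all genes tested were separated in this way. Relative to CDH1, per kilobase, CTNNB1 was at 1.16 ± 0.0105 in parental and 0.846 ± 0.0192 in LNCaP-enzaR cells. CTNNA1 followed the same course, from 1.03 ± 0.00878 to 0.754 ± 0.0381, since CDH1 was higher and CTNNA1 was not. The ratio of JUP to CDH1 was 0.810 ± 0.0201 and 0.871 ± 0.127, within the spread of the LNCaP-enzaR libraries. On the same per-kilobase scale the order in parental cells was CTNNB1, CTNNA1, CDH1, JUP and CTNND1, and no neighbours in it overlapped. In LNCaP-enzaR it was CDH1, JUP, CTNNB1 and CTNNA1, with JUP overlapping both of its neighbours, followed by CTNND1 and CTNND2. With the length of all annotated exons the order was CDH1, JUP, CTNNA1 and CTNNB1 in both lines, so the order of levels is tied to the transcript model.

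Other cadherin genes changed in both directions at low levels. Of 18 listed, 17 had a row and 9 were tested, of which 3 rose and 3 fell, with a median log2 fold change of -0.08. The share past the limits was 66.7%, beside 42.7% of all genes tested. CDH6, a type II cadherin, had 550 counts summed over parental and 10 over LNCaP-enzaR libraries, a ratio of 57.5 (95% exact counting interval 31 to 121). Its fall was past the limits (adjusted p = 8.81e-10), but CDH6 passed the filter on low counts through parental libraries only. Its direction was thus given by the filter. CDH26 fell from 5.88 ± 0.895 to 1.55 ± 0.105 CPM (log2 fold change -1.93, adjusted p = 2.35e-08). CDH7, another type II form, fell from 2.80 ± 0.265 to 0.902 ± 0.184 CPM (log2 fold change -1.63, adjusted p = 2.56e-06). CDH15, the M-cadherin of muscle, rose from 2.47 ± 0.385 to 8.70 ± 0.855 CPM (log2 fold change 1.82, adjusted p = 1.68e-08). CDH24 was at 8.53 ± 0.895 and 8.05 ± 0.416 CPM (adjusted p = 0.476). The other 2 that rose, CDH18 and CDH22, were named after their values were seen and stayed below 1 CPM in both lines. CDH22 had 3, 0 and 0 counts in parental and 22, 17 and 25 in LNCaP-enzaR libraries. It passed the filter on low counts through LNCaP-enzaR only, so its direction was given by the filter. With at least 10 counts required in every library, 4 of the other cadherins were past the limits. All of the other cadherins named lay far below CDH1, the highest of them reaching 8.70 CPM.

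The relatives of the catenins were mostly short of the limits. Among 4 tested of 5 listed, only CTNNBL1 passed the limits (25%, beside 42.7% of all genes tested). It fell from 41.0 ± 1.86 to 23.5 ± 1.29 CPM (log2 fold change -0.80, adjusted p = 1.1e-07). Despite its name its product is a spliceosome-associated protein. ARVCF and PKP4, which belong to the p120 family, were at 42.9 ± 0.657 and 49.7 ± 7.52 CPM (adjusted p = 0.0467) and at 103 ± 3.99 and 94.1 ± 5.03 CPM (adjusted p = 0.0833), both short of 1.5-fold. For ARVCF the log2 fold change was 0.21, and without LNCaP-enzaR replicate 1 it was 0.10 (adjusted p = 0.116). CTNNAL1, related to α-catenin, was at 90.6 ± 2.53 and 84.1 ± 5.31 CPM (adjusted p = 0.132).

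Genes whose products work with the cadherin-catenin complex changed in both directions. Of 16 adherens junction partners 5 rose and 3 fell (median log2 fold change -0.03), or 50% past the limits, beside 42.7% of all genes tested. TJP1, which encodes the scaffold ZO-1 that binds α-catenin, fell from 247 ± 1.33 to 86.0 ± 2.02 CPM (log2 fold change -1.52, adjusted p = 6.34e-12). NECTIN1, an immunoglobulin-type adhesion receptor of the same junction, fell by 1.23 on the log2 scale (adjusted p = 2.24e-09). PTPRK, a receptor phosphatase that acts on catenins, rose from 6.39 ± 0.977 to 25.3 ± 2.06 CPM (log2 fold change 1.98, adjusted p = 8.16e-10).

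Desmosomes use plakoglobin too, and of their 11 genes tested 1 rose and 3 fell (median -0.13). This was 36.4% past the limits, beside 42.7% of all genes tested. The gene that rose was DSG4, named after its values were seen. It had 12, 5 and 1 counts in parental and 95, 114 and 140 in LNCaP-enzaR libraries. Its parental libraries alone would not have passed the filter on low counts, so the direction for DSG4 is not independent of the filter. PKP1, a plakophilin, had 996 counts over parental and 6 over LNCaP-enzaR libraries. The ratio of 173 (95% exact counting interval 79.4 to 474) was past the limits (adjusted p = 2.28e-11). Like CDH6, PKP1 passed the filter on low counts through parental libraries only, so its direction was given by the filter. The desmocollin genes DSC3 and DSC1 fell by 1.65 and 2.05 on the log2 scale (adjusted p = 2.1e-09 and 2.58e-08). Among 11 tight junction genes 3 rose and 1 fell (median -0.08), again 36.4%. CLDN3 fell from 64.9 ± 4.17 to 35.9 ± 4.14 CPM (adjusted p = 3.94e-07), and OCLN, encoding occludin, rose from 26.9 ± 0.420 to 43.6 ± 6.13 CPM (adjusted p = 7.6e-06). CLDN4 rose from 149 ± 1.20 to 228 ± 26.2 CPM (log2 fold change 0.61, adjusted p = 3.39e-06), but its log2 fold change was 0.52 without LNCaP-enzaR replicate 1 and 0.57 with library totals in place of TMM, both under 1.5-fold.

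Among genes of β-catenin turnover, 2 of 10 in the destruction complex rose and 1 fell (median -0.05), beside 42.7% past the limits in either direction over all genes tested. APC2, a homologue of the APC tumour suppressor, rose from 4.23 ± 0.264 to 15.4 ± 2.14 CPM (adjusted p = 2.04e-09). GSK3B, the kinase that marks β-catenin for degradation, rose from 115 ± 3.18 to 190 ± 9.43 CPM (adjusted p = 3.83e-08), and AMER1, a scaffold of the complex, fell from 44.4 ± 2.12 to 21.3 ± 0.771 CPM (adjusted p = 3.97e-09). Of 9 nuclear partners 2 rose and none fell (median 0.24), among them the DNA-binding factor LEF1, from 1.90 ± 0.142 to 5.95 ± 0.876 CPM (adjusted p = 1.03e-07). The other was TCF7L1, named after its values were seen, with 5, 3 and 2 counts in parental and 24, 36 and 27 in LNCaP-enzaR libraries. TCF7L1 passed the filter on low counts through LNCaP-enzaR only, so its direction was given by the filter.

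Of 12 genes whose products bind or act on p120-class catenins, 3 rose and none fell (median -0.06). The share past the limits was 25%, beside 42.7% of all genes tested. ERBIN, a scaffold that binds δ-catenin, rose from 84.8 ± 1.07 to 181 ± 16.8 CPM (log2 fold change 1.09, adjusted p = 3.0e-09). ARHGAP35, which encodes a GTPase-activating protein, rose from 152 ± 5.85 to 277 ± 11.3 CPM (adjusted p = 4.57e-09). FYN, a Src-family kinase, rose from 2.00 ± 0.477 to 7.86 ± 0.227 CPM (adjusted p = 2.68e-08).

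Of 8 transcription factors known to repress CDH1, 5 were tested, and 3 fell and none rose (median -1.11). Over all genes tested 19.5% were lower and 23.3% higher. SNAI2, which encodes SLUG, fell from 3.76 ± 0.625 to 0.415 ± 0.0727 CPM (log2 fold change -3.18, adjusted p = 4.31e-09). TWIST1 fell from 26.8 ± 0.534 to 7.29 ± 1.07 CPM (log2 fold change -1.88, adjusted p = 4.38e-10), and TCF3 fell from 133 ± 3.94 to 61.5 ± 5.09 CPM (log2 fold change -1.11, adjusted p = 1.94e-09). The other 2 tested, SNAI1 and KLF8, named after their values were seen, were at 4.01 ± 0.526 and 4.98 ± 0.936 CPM (adjusted p = 0.0759) and at 0.132 ± 0.0682 and 0.252 ± 0.0769 CPM (adjusted p = 0.144). ZEB1 and ZEB2, the repressors most tied to loss of E-cadherin, did not pass the filter on low counts. Factors that support epithelial gene expression went both ways, with 3 of 8 higher and 2 lower (median -0.07). OVOL1 rose from 3.62 ± 0.286 to 15.7 ± 1.22 CPM (adjusted p = 1.6e-10), ELF3 rose from 15.1 ± 0.701 to 29.9 ± 1.56 CPM (adjusted p = 2.14e-08), and GRHL1 fell from 12.6 ± 1.06 to 7.11 ± 0.219 CPM (adjusted p = 1.59e-06). Without LNCaP-enzaR replicate 3 the last count was 3 in place of 5, and GRHL3 and OVOL2 were the genes lost.

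**Figure D4:**
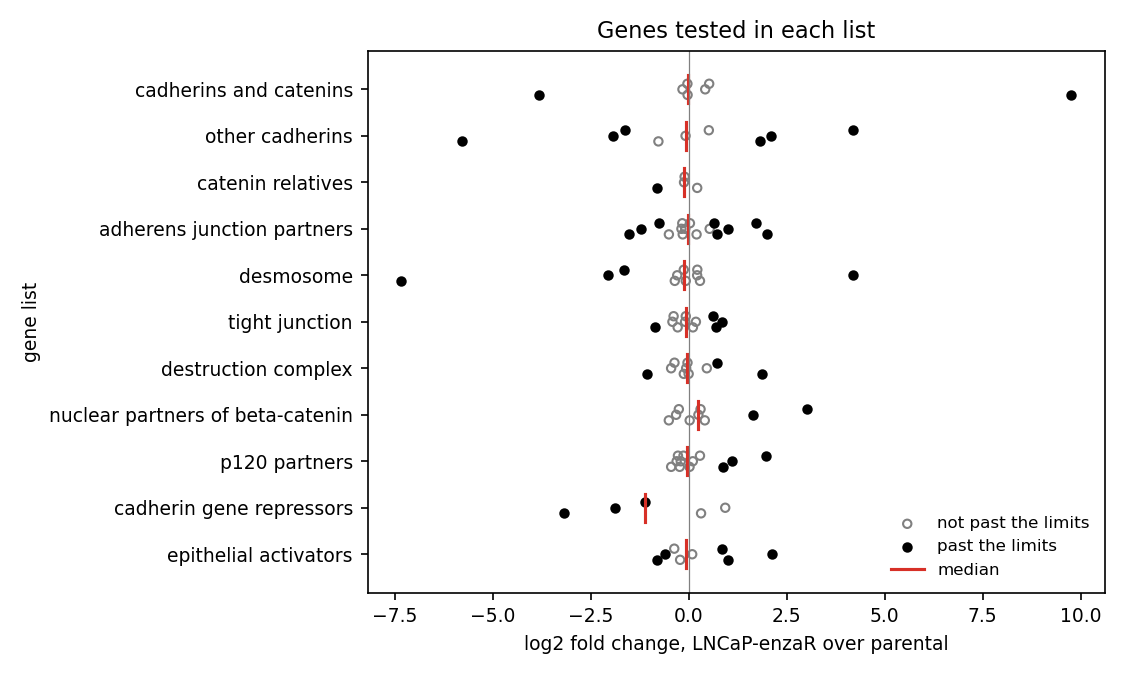
Log2 fold change of every gene tested in each list (points, filled where past both limits), with the median of the list as a red bar. The medians lie between -0.13 and 0.24 for 10 of the 11 lists, and that of the cadherin gene repressors lies at -1.11. The CTNND2 and PKP1 points at the right and left ends are fitted values that rest on 3 and 6 counts in 1 of the lines.

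Genes next to CTNND2 on chromosome 5 went both ways, and of the 3 nearest tested on each side 1 rose and 2 fell in all. Toward the telomere, DAP, 210.6 kb away, was at 175 ± 2.60 and 174 ± 7.73 CPM (adjusted p = 0.862), and MARCHF6, 531.4 kb away, at 145 ± 5.67 and 157 ± 10.3 CPM (adjusted p = 0.11). ROPN1L, 499.8 kb away, rose from 0.322 ± 0.0924 to 0.913 ± 0.256 CPM (log2 fold change 1.49, adjusted p = 8.94e-04). Toward the centromere, DNAH5, 1785.9 kb away, fell by 1.05 on the log2 scale (adjusted p = 2.07e-07). OTULINL fell by 1.25 (adjusted p = 4.45e-09), and TRIO, which encodes a guanine nucleotide exchange factor, was at 62.7 ± 3.06 and 50.9 ± 2.32 CPM (log2 fold change -0.30, adjusted p = 6.98e-04), short of 1.5-fold. Of the 23 other protein-coding genes tested within 5 Mb on either side, 6 rose and 4 fell, with a median log2 fold change of -0.05. Over all genes tested 23.3% were higher and 19.5% lower.

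The genes whose profile over the 6 libraries was closest to that of CTNND2 were likewise near 0 in parental cells, which follows largely from how they were picked. Likeness was the Euclidean distance of log2(CPM + 0.01), centred on each gene's mean, among 10514 genes with a mean of at least 5 CPM in a line. TIMP3, an inhibitor of metalloproteases, was nearest at a distance of 1.26, with 7, 3 and 3 counts in parental and 4392, 4670 and 4642 in LNCaP-enzaR libraries. A1CF, a cofactor of APOB mRNA editing, followed at 1.27 with 0, 2 and 1 against 1005, 1183 and 1304 counts. FHL1, a LIM-domain protein gene, came next at 1.46 with 0, 1 and 1 against 1437, 1445 and 1776 counts. The median distance over all genes compared was 11.2. Counts of at most 3 in every parental library together with a mean of at least 10 CPM in LNCaP-enzaR were found for 3 genes of the table, CTNND2, A1CF and FHL1.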

How the data were processed

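Polyadenylated RNA of 3 parental LNCaP and 3 LNCaP-enzaR flasks was sequenced as paired-end reads. The authors trimmed reads with Cutadapt, aligned them to GRCh38.p13 with STAR and the GENCODE v38 annotation, and deposited raw counts per gene from featureCounts. Strand setting and treatment of multiply mapped reads are not given in the sources used here, so genes with overlapping or antisense neighbours or near-identical copies are uncertain. Columns were mapped to lines by name. Single values of some marker genes are not reported here.

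Tests used edgeR 4.0.16 (R 4.3.3). After filterByExpr, 19711 genes holding 99.96% of counts were scaled by TMM and compared by edgeR's quasi-likelihood F-test (robust, no covariates), with Benjamini-Hochberg adjustment over all genes tested. P-values measure the spread between these flasks. The SE was derived from the F statistic. DESeq2 (run here in version 1.42.0), other scalings and filters, a replicate block and leaving out each library were alternatives.

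CPM uses TMM-scaled libraries. Ratios of summed counts carry 95% Clopper-Pearson intervals. Transcript lengths and exon overlap came from GENCODE v44. In addition to the members, genes were named by rule: other cadherins and catenin relatives at 1 CPM or more in a line, the 3 smallest p past the limits per list at that level, the 3 nearest tested genes on each side of CTNND2, and the 3 closest profiles. Members and lists were chosen with earlier results of these data known.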

Additional observations from a re-analysis of the deposited data

How the results depend on the processing

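Members were chosen on these values, so their behaviour over the 15 alternatives to the fit is a description only. With at least 10 counts required in every library, CTNND2 and CTNNA2 could not be tested, so 0 members were past the limits, 2 desmosome genes, 1 nuclear partner and 27 genes of the wider cadherin superfamily. Upper-quartile scaling gave log2 fold changes of 0.62 for JUP, now past 1.5-fold, and of 0.064 for CTNNA1, 0.068 for CTNNB1, 0.016 for CDH24 and 0.089 for DAP, which turned their signs. DAP also turned to 0.0107 with that count requirement and to 0.0105 with protein-coding genes only, and ranged from -0.0340 to 0.0300 over the libraries left out. Without a filter on low counts 3 members were past the limits, CDH3 being added. Leaving out 1 library at a time gave 2 members past the limits each time, 3 to 5 epithelial activators and 8372 to 8517 genes in all. Of 40 named genes other than members, CDH6, PKP1, TIMP3, A1CF and FHL1 could not be tested under the stricter count requirement, and of the other 35, all but CDH24, CLDN4 and DAP kept call and direction in each alternative.

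Levels per kilobase depended on the length. With all annotated exons CTNND2 in LNCaP-enzaR was at 1.52 CPM, CTNND1 at 1.67 and in parental cells at 1.87, the CTNND2 share was 47.9%, and the JUP shares were 61.5% and 69.9%. With exonic bases shared with no other gene, chosen after seeing the data, the values were 1.52, 2.74, 3.06, 35.9% for CTNND2 and again 61.5% and 69.9% for JUP.

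Same-numbered replicates did not deviate together (correlations of -0.0652, -0.00041 and -0.0507), so the numbers do not pair the libraries. With a replicate block 8212 genes and 2 members were past the limits, and no member changed its call. Without the mitochondrial genes the log2 fold changes of CDH1 and JUP were 0.42 and 0.52. Depth limits the parental level of CTNND2 and the levels of CDH2 and CDH3, which rest on a few counts.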

Other observations

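Beyond the classical cadherins, 78 further genes of the cadherin superfamily (protocadherins, calsyntenins and the CELSR, FAT, DCHS and CDHR families) were looked at after their values were seen. Of these 62 were tested, and 32 were past the limits as higher and 9 as lower, with a median log2 fold change of 0.70. Over all genes tested 23.3% were higher and 19.5% lower. The list gets no test of its own, and genes that passed the filter through 1 line only had to differ. CELSR1, a cadherin of planar cell polarity, rose from 28.1 ± 0.815 to 57.1 ± 3.51 CPM (log2 fold change 1.02, adjusted p = 5.14e-09, edgeR). CLSTN3, a calsyntenin, rose from 24.4 ± 1.64 to 66.4 ± 7.46 CPM (log2 fold change 1.45, adjusted p = 1.66e-09, edgeR). PCDH9, a protocadherin, fell from 1.92 ± 0.279 to 0.102 ± 0.0419 CPM (log2 fold change -4.21, adjusted p = 1.98e-08, edgeR). It held 12, 5 and 11 counts in LNCaP-enzaR libraries, which alone would not have passed the filter on low counts. The direction for PCDH9 is therefore not independent of the filter.

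The clustered protocadherins on chromosome 5 are adhesion proteins best known for giving neurons their cell identity. In the alpha cluster, 14 genes summed to 0.275 to 0.453 CPM in parental and 7.13 to 7.57 CPM in LNCaP-enzaR libraries. Only 6 of the 14 were tested, all of them higher, and most passed the filter through LNCaP-enzaR. PCDHAC2 led with 3, 0 and 0 counts against 389, 359 and 389. In the beta cluster, 7 of 15 genes tested rose and 1 fell, and the sums were 44.3 to 46.5 and 54.1 to 61.4 CPM. In the gamma cluster 10 of 21 rose and 3 fell, with sums of 58 to 59.6 and 91.8 to 97.6 CPM. Genes of the alpha and of the gamma cluster share their last exons and those of the beta cluster resemble each other, so the values of single genes are uncertain.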
